A study of Homo sapiens with 17 samples.

Results

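The nuclear-encoded subunits of the mitochondrial respiratory chain were followed in 6 human acute myeloid leukemia (AML) cell lines with and without D9. All array probes whose annotated gene symbol begins with NDUFA, NDUFB, NDUFC, NDUFS, NDUFV, UQCR, COX4, COX5, COX6, COX7, COX8 or ATP5 were taken. Of 47323 probes on the array, 121 met this rule once 3 probes for pseudogenes had been left out. Of the 121, 103 probes report on 78 subunit genes, with 42 probes for 36 genes of complex I, 13 for 8 genes of complex III, 18 for 17 genes of complex IV and 30 for 17 genes of complex V. The other 18 probes, for 10 genes, carry the prefix but encode no subunit, and they were kept apart. D9 is an analog of 3-deazaneplanocin A, an inhibitor of S-adenosylhomocysteine hydrolase, the enzyme that clears the by-product of methyl transfer.

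Complexes I, III and IV pass electrons from NADH to oxygen and pump protons across the inner mitochondrial membrane. Complex V, the ATP synthase, lets the protons flow back and makes ATP. A few core subunits are encoded by mitochondrial DNA, and the others, described here, are encoded in the nucleus, made in the cytosol and imported.

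RNA was measured on 17 bead arrays of cells harvested after 48 h. The D9 arrays were 6 at 1 µM, 1 per line, and 5 at 5 µM, since MV-4-11 had no array at the higher dose, and each line had 1 untreated array. The sensitive class is made up of MV-4-11, TF-1 and MOLM-14, while KG-1a, THP-1 and Mono-Mac-1 make up the resistant class, following the study's own division by response to D9. TF-1 alone was grown with interleukin 3. No array was repeated, so the cell line served as the replicate, and each line is a single model of its class. Levels are given as background-corrected, quantile-normalized log2 signals, and only values of the same probe are compared.

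Some marker genes set the lines apart. The erythroid factor GATA1 had a signal of 391 in untreated TF-1 cells and of 45.1 to 65.1 in the other untreated lines. KLF1, another erythroid factor, had 413 in TF-1 and 49.9 to 67.1 in the other lines. The erythroid marker EPOR did not single out TF-1, with 234 there and 90.2 to 300 in the other lines. The progenitor antigen CD34 had 10100 in KG-1a and 3180 in TF-1 on its brightest probe, against 59.5 to 68.9 elsewhere. KIT, another progenitor marker, was not raised in KG-1a. On probe ILMN_2229379 KIT had 62.5 in KG-1a, against 391 in TF-1 and 169 in MV-4-11. Its other probe had 366 in TF-1 and 155 in MV-4-11. PTPRC, the common leukocyte antigen, stayed between 39.2 and 72.9 on its 4 probes in untreated cells, near the array medians of 53.9 to 67.4. Markers of epithelium, T cells and fibroblasts (EPCAM, KRT19, CD3E, COL1A1) did not exceed 78.1, while ALB, a liver gene, had 60.7 to 200 on 1 of its 2 probes, highest in THP-1, and at most 62.6 on the other. Of 21 tested probes of such identity markers, 2 were called higher with D9, for MPO and CSF1R, and none lower, beside 2.79% of all tested probes called higher. Other myeloid markers of the list, LYZ, CD14, SPI1 and ITGAM, were not called, with effects between 0.02 and 0.30. Their part in the results was not tested.

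Most subunits gave a clear signal. Probes were tested where their mean over the 17 arrays exceeded 6.159 on the log2 scale, a limit that 40% of all probes did not pass, and 94 of the 103 probes, for 72 of the 78 genes, passed. The untreated mean of the 94 ran between 6.23 and 13.88 with a median of 11.09, while the median over all 28394 tested probes was 6.80. The 9 probes that did not pass were those of NDUFS6, COX4I2, COX6A2, COX7A1, COX7B2 and COX8C, and 1 probe each of NDUFB4, COX6B2 and ATP5MC2, whose other probes were tested.

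Untreated lines differed in these RNAs. The median range of a subunit over the 6 untreated lines was 1.17 on the log2 scale, and 57 of 94 probes (60.6%) had a range above 1, against 43.5% of all tested probes, whose median range was 0.85. A range above 2 was found for 10 of 94 (10.6%), against 14.1% of all. With median levels of 11.09 for the subunits and 6.80 for all tested probes, these shares were not compared at equal level. Relative to the mean of the 6 lines, the median subunit stood at 0.22 in MV-4-11, at 0.20 in KG-1a, at 0.04 in Mono-Mac-1, at -0.01 in TF-1, -0.15 in MOLM-14 and -0.29 in THP-1. Over all tested probes the same deviations lay between -0.04 and 0, but quantile normalization holds them near 0 in advance. They are therefore no yardstick for the subunits. KG-1a was the highest line for 33 of the 94 probes, against 5427 of all 28394 tested probes, and the lowest for 13 of the 94. MOLM-14 was the lowest for 33 of the 94, against 6103 of all 28394, and the highest for 19 of the 94.

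**Figure D1:**
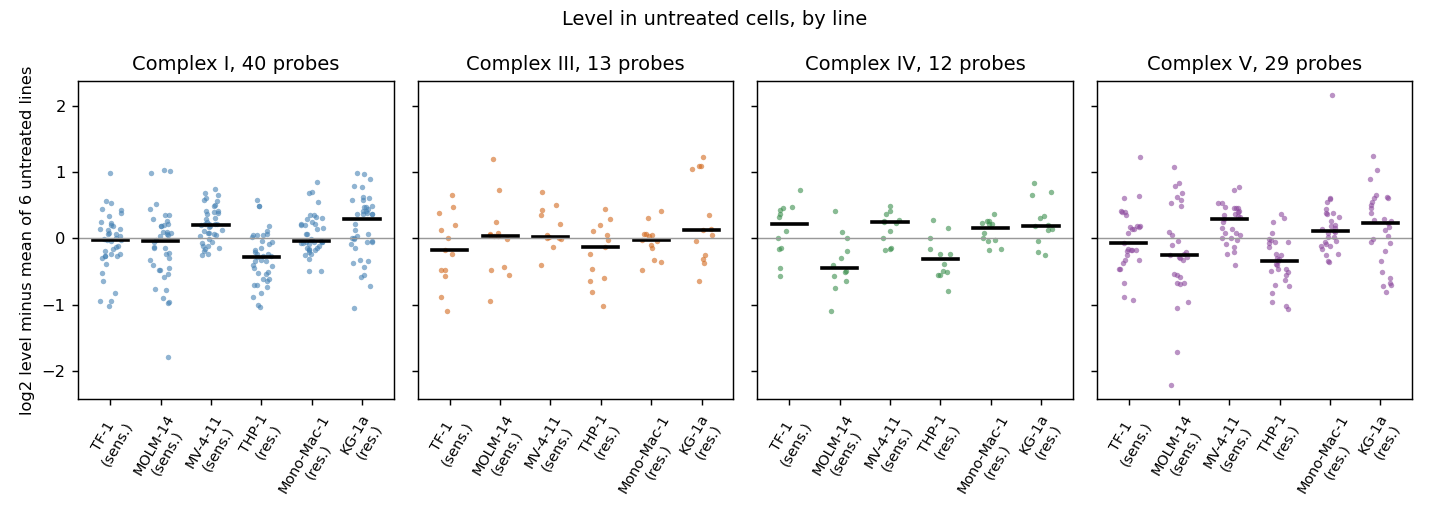
Level of each tested subunit probe in untreated cells, as its log2 level minus its mean over the 6 untreated lines (vertical axis), by cell line (horizontal axis) and complex. Each point is a probe on 1 array and black bars are medians; in complex IV the bar of MOLM-14 lies at -0.45 and that of MV-4-11 at 0.25.

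The order of the lines was not the same in each complex. For complex IV, cytochrome c oxidase, MOLM-14 had the lowest median deviation at -0.45 and THP-1 the next at -0.31, and the remaining lines lay between 0.16 and 0.25. For complex I, the NADH dehydrogenase, THP-1 was lowest at -0.28 and KG-1a highest at 0.29. For complex V, MV-4-11 stood at 0.30 and THP-1 at -0.33. With 1 untreated array per line, no order between neighbouring lines could be tested.

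A few probes spanned a wide range. ATP5F1C, the gamma subunit that turns inside the ATP synthase, had a log2 level of 9.42 in MOLM-14, the lowest, and of 12.37 in TF-1, the highest, a range of 2.96, with 10.07 in THP-1 as the next lowest. NDUFA12, an accessory subunit of complex I, read 9.30 in MOLM-14 and 10.05 in THP-1, with the remaining lines between 11.66 and 11.98. MOLM-14 and THP-1 were thus the lower pair for both. The order is not particular to these subunits, since the same pair was lowest for SDHD of complex II and for MYC. It was the highest pair for NUBPL, an assembly factor. NDUFB5, another accessory subunit, had a different order, with KG-1a lowest at 10.90 and TF-1 highest at 12.95. ATP5MK, a small membrane subunit of the ATP synthase, was dim in most lines and stood out in Mono-Mac-1, at 9.32 against 6.10 to 7.80. In complex III, the second UQCR10 probe (ILMN_2366710) ran between 7.50 in TF-1 and 9.80 in MOLM-14, a UQCRB probe (ILMN_1759453) had a range of 2.07, and in complex IV COX6C ran between 12.26 in THP-1 and 13.89 in KG-1a.

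One wide range was not shared by a second probe of its gene. ATP5PB, the subunit b of the peripheral stalk, ran between 8.03 in MOLM-14 and 11.28 in KG-1a on probe ILMN_1672191, a range of 3.25. On ILMN_1721989 its range was 0.89, with MOLM-14 lowest at 11.71 and THP-1 highest at 12.61.

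The sensitive and resistant classes could not be separated by their untreated levels. None of the 94 probes was called in limma (adjusted p under 0.10), against 0% of all 28394 probes, and 2 of 94 and 600 of 28394 had an unadjusted p under 0.05. The median difference, sensitive minus resistant, was 0.03. NDUFA13, an accessory subunit of complex I, differed by 0.48 ± 0.16 (SE) and NDUFB5 by 0.71 ± 0.44, both with an adjusted p of 1.0 in limma. ATP5ME, a membrane subunit of the ATP synthase, differed by 0.61 ± 0.23, NDUFA8 by 0.49 ± 0.31 and UQCRQ by 0.34 ± 0.17. Below 0, the smallest p were those of ATP5PB (ILMN_1721989) at -0.45 ± 0.20, the core subunit NDUFS3 at -0.49 ± 0.25, ATP5F1E at -0.26 ± 0.14, NDUFB3 at -0.41 ± 0.23 and NDUFB4 at -0.35 ± 0.26. The adjusted p of each was 1.0 when rounded (limma).

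Several complex IV subunits have a second gene used mainly in muscle, lung or testis. These second genes were at the level of the array background in all 17 arrays. The raw signal ran between 35.6 and 54.9 for COX4I2, known from lung, between 35.9 and 63.7 for COX6A2 and between 34.2 and 53.0 for COX7A1, both muscle forms, between 36.5 and 64.4 for COX7B2 and between 38.4 and 53.0 for COX8C, both known from testis. The general forms COX4I1, COX6A1, COX6B1, COX7A2, COX7B and COX8A had 6590 to 13400, 1410 to 4400, 4020 to 14300, 3500 to 12300, 2290 to 6910 and 4500 to 12600. COX6B2, the testis form of subunit VIb, was the exception. On 1 of its 2 probes (ILMN_2176467) TF-1 had a raw signal of 161 untreated, 112 at 1 µM and 102 at 5 µM, while the 14 arrays of the other lines lay between 32.3 and 51.4. All 3 TF-1 arrays were thus above every other array, although the other COX6B2 probe (ILMN_1725547) stayed between 46.1 and 69.7 over all arrays. ILMN_2176467 is the COX6B2 probe that did not pass the level limit.

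The effect of D9 on the subunits was small. The effect of D9 in a line was its D9 arrays' mean log2 level minus its untreated level, and the mean over both classes was tested against 0 in limma with 1 value per line. Of the 94 probes, 11 were called (11.7%), against 5.60% of all tested probes. The 4 called higher report on UQCR10, NDUFA2 and NDUFC2, against a background of 2.79% called higher, and the 7 called lower on NDUFB6, NDUFA6, NDUFA10, ATP5PF and ATP5PD, against 2.81%. Dim probes are called less often than bright ones, and the subunits are bright. When only probes above the 60th percentile of level were tested, 11 of 90 subunit probes (12.2%) and 10.5% of all 18929 probes were called, so the share of subunits called was then near the background.

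Each of the 11 called probes moved the same way in 6 of 6 lines, which a call on these same line values favours. Called or not, 20.2% of the subunit probes had the same sign in 6 lines, against 11.4% of all tested probes. No mean effect exceeded 0.77 on the log2 scale. The median effect over the 94 probes was -0.08, or -0.05 over 72 genes with the brightest probe of each, against 0.00 over all tested probes. The effect lay below 0 for 61 probes (64.9%), against 50.9% of all. With the filter at the 60th percentile the median was -0.08 over 90 subunit probes, against 0.00 over all tested probes. Median levels were 11.09 for the subunits and 6.80 for all tested probes, and these shares and medians were not compared at equal level, here or by complex. Quantile normalization also holds the median over all tested probes near 0. Because each array measured a whole culture, fewer cells carrying an RNA and less of it per cell cannot be told apart.

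**Figure D2:**
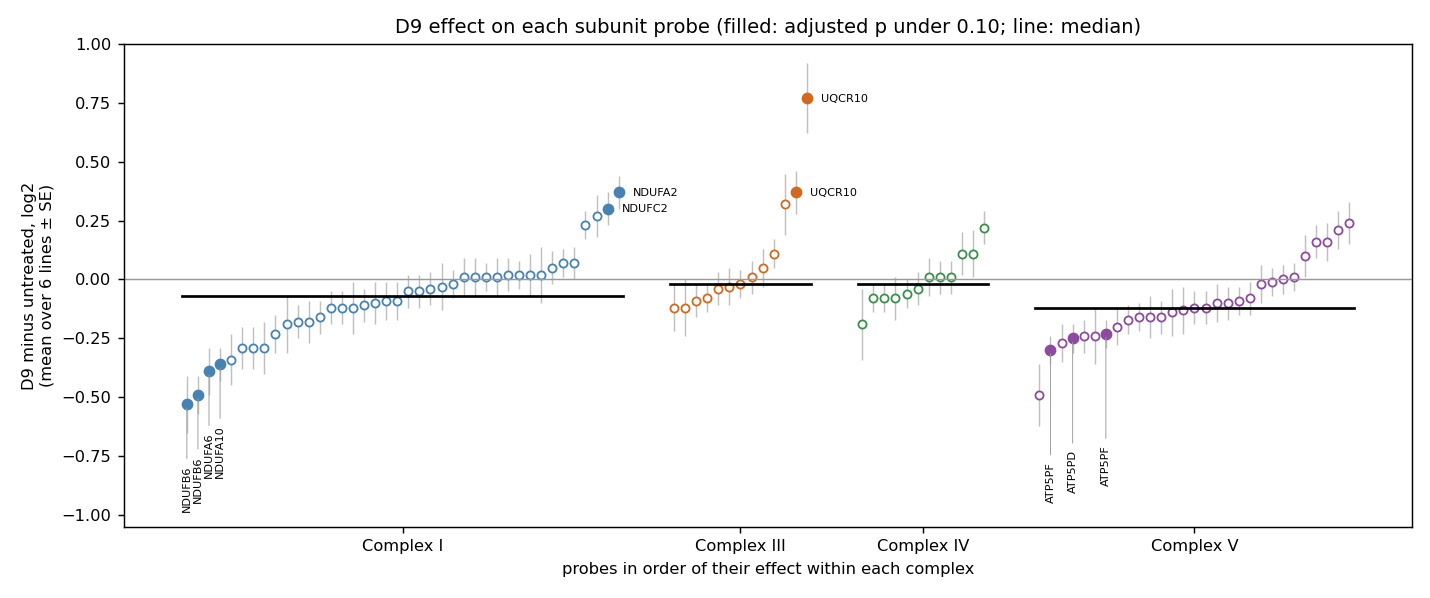
D9 effect on each of the 94 tested subunit probes, as log2 D9 minus untreated (vertical axis, mean over 6 lines ± SE from limma), in rising order within each complex (horizontal axis). Filled points were called at an adjusted p under 0.10 and black lines are medians; the called probes run between -0.53 for NDUFB6 and 0.77 for UQCR10.

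The calls depended on which lines were included. Without TF-1, 1 subunit probe was called lower and 0 higher, of 510 calls over all tested probes. Without MOLM-14 these counts were 4 and 1 of 1376, without MV-4-11 2 and 1 of 584, without THP-1 4 and 1 of 872, without Mono-Mac-1 0 and 1 of 108, and without KG-1a 2 and 3 of 1223. With all lines included they were 7 and 4 of 1591, so calls over the whole array fell too. NDUFB6 (ILMN_1763147) kept its call without any 1 line other than Mono-Mac-1, where its adjusted p was 0.125 in limma.

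Complex I held 6 of the calls, all in accessory subunits, which surround the catalytic core. Its 40 probes had a median effect of -0.07, or -0.12 with median scaling or the authors' log2 values, with 25 below 0. NDUFB6 of the membrane arm was lower on both of its probes. On ILMN_1763147 the 11 D9 arrays ran between 8.55 and 10.11 with a median of 9.27, and the 6 untreated arrays between 8.87 and 10.52 with a median of 9.95. The groups overlapped because the lines start from different levels, but within each line the D9 mean was lower, with effects of -0.67 in MV-4-11, -0.64 in TF-1 and -0.37 in MOLM-14 among the sensitive lines, and of -0.63 in Mono-Mac-1, -0.43 in KG-1a and -0.22 in THP-1 among the resistant ones. The mean effect was -0.49 ± 0.08 (SE, 6 lines), 1.41-fold lower with D9 (adjusted p = 0.0347, limma). On ILMN_2369924 it was -0.53 ± 0.12 (adjusted p = 0.0711, limma).

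NDUFA6 and NDUFA10 were lower as well. NDUFA6, an accessory subunit of the matrix arm, ran between 7.54 and 9.27 over the D9 arrays with a median of 8.52, and between 7.91 and 9.85 over the untreated arrays with a median of 8.86. Its mean effect was -0.39 ± 0.10, strongest in KG-1a at -0.70 and weakest in THP-1 at -0.07 (adjusted p = 0.0858, limma). NDUFA10 ran between 8.95 and 9.59 over the D9 arrays and between 9.28 and 9.82 over the untreated arrays, and fell by 0.36 ± 0.07 (adjusted p = 0.0568, limma). Its second probe had an effect of -0.29 ± 0.09 that was not called (adjusted p = 0.121, limma).

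NDUFA2 and NDUFC2 went the other way. NDUFA2, which belongs to the matrix arm, had a median of 11.65 over the D9 arrays and of 11.22 over the untreated arrays. It was higher with D9 in all lines, by 0.63 in TF-1, 0.52 in MOLM-14 and 0.45 in Mono-Mac-1, by 0.23 in THP-1 as well as MV-4-11, and by 0.16 in KG-1a, a mean of 0.37 ± 0.07 or 1.29-fold (adjusted p = 0.0557, limma). NDUFC2, a subunit of the membrane arm, was a dim probe, between 6.68 and 7.55 over the D9 arrays and between 6.34 and 7.00 over the untreated arrays, with a mean effect of 0.30 ± 0.07 (adjusted p = 0.0785, limma). NDUFA3, a further accessory subunit, came next at 0.23 ± 0.06, above 0 in 6 of 6 lines but not called (adjusted p = 0.105, limma).

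The tested core subunits of complex I that carry its flavin and iron-sulfur clusters were not among the calls. NDUFV2 had an effect of -0.29 ± 0.09 and NDUFS8 of -0.34 ± 0.11 (adjusted p = 0.149 and 0.154, limma), and NDUFS1 of -0.10 ± 0.09.

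**Figure D3:**
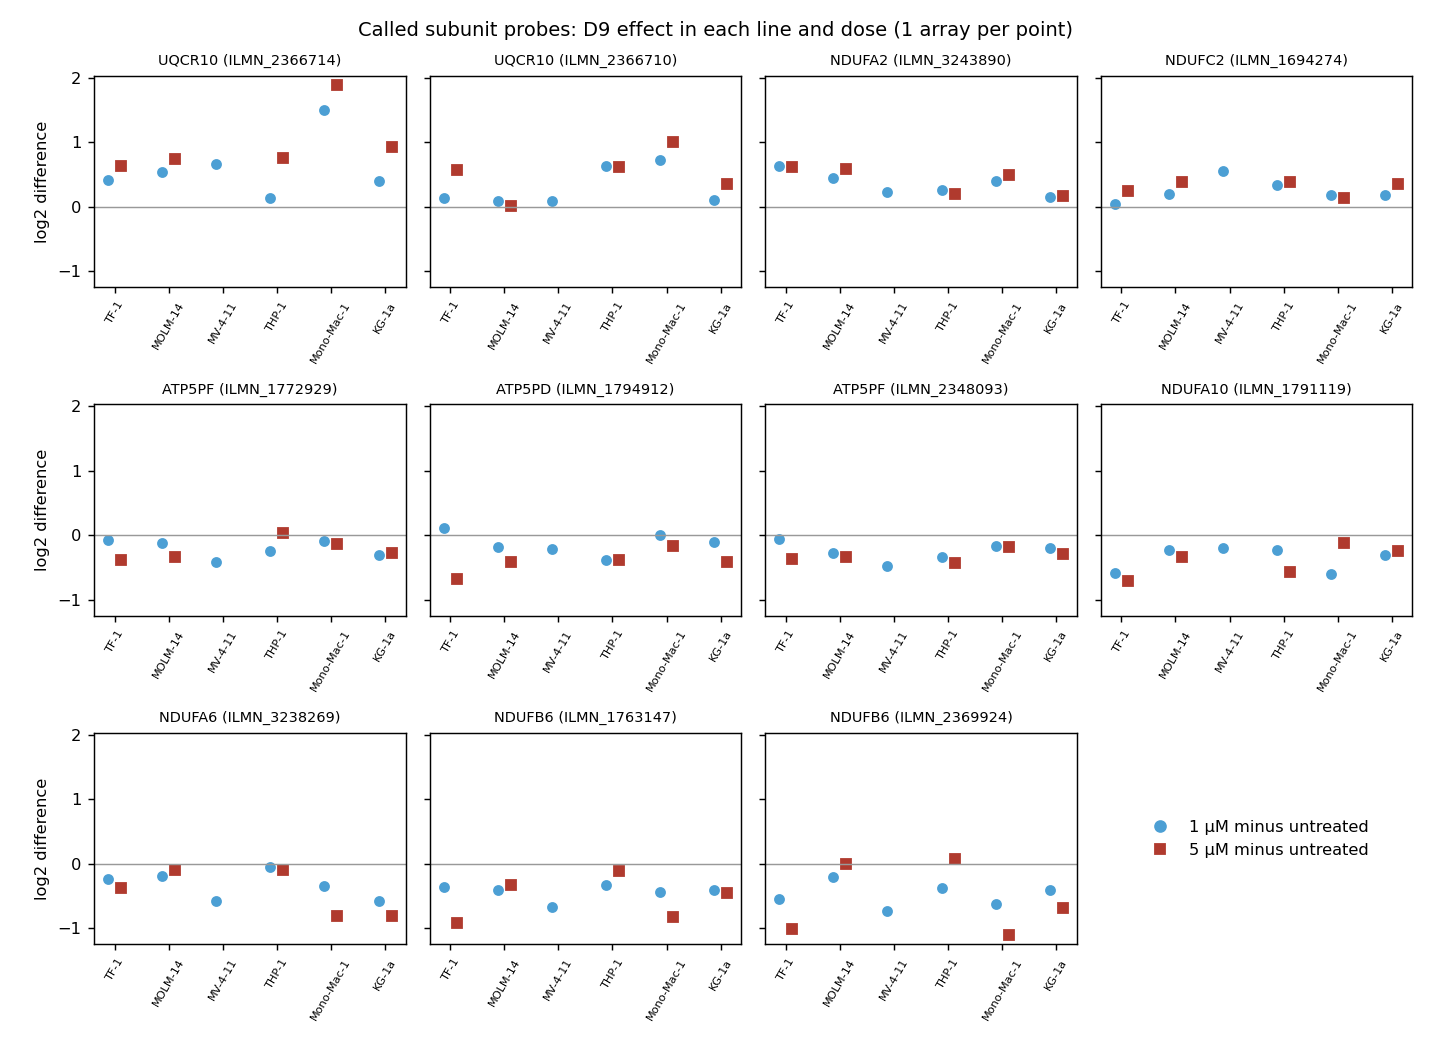
D9 effect on the 11 called subunit probes in each cell line (horizontal axis), as log2 D9 minus untreated (vertical axis), with circles at 1 µM and squares at 5 µM and 1 array behind each point. UQCR10 (ILMN_2366714) reaches 1.88 in Mono-Mac-1 at 5 µM, and NDUFB6 (ILMN_2369924) reaches -1.10 there.

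Complex III, the cytochrome bc1 complex, had calls for UQCR10 alone, a small accessory subunit. Probe ILMN_2366714 read 6.99 untreated, 7.40 at 1 µM and 7.63 at 5 µM in TF-1, and 7.96, 8.50 and 8.70 in MOLM-14. In MV-4-11 it read 9.06 at 1 µM, against 8.39 untreated. In THP-1 it read 7.42 untreated, 7.55 at 1 µM and 8.17 at 5 µM, in Mono-Mac-1 7.55, 9.04 and 9.42, and in KG-1a 8.97, 9.37 and 9.90. Every line was higher with D9 and each of the 5 lines with both doses was highest at 5 µM. The mean effect was 0.77 ± 0.15, or 1.70-fold (adjusted p = 0.0513, limma), and the effect in Mono-Mac-1, 1.69, stood above those of the other lines, 0.44 to 0.66. The call was lost without TF-1 (adjusted p = 0.114, limma) and without MV-4-11 (adjusted p = 0.119, limma).

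The 3 probes of UQCR10 disagreed. ILMN_2366710 was called higher as well, at 0.37 ± 0.09 (adjusted p = 0.0855, limma), with effects of 0.86 in Mono-Mac-1 and 0.62 in THP-1 but 0.05 in MOLM-14 and 0.09 in MV-4-11. ILMN_1781986 had an effect of -0.12 ± 0.10 (adjusted p = 0.598, limma), with Mono-Mac-1 at 0.21 and MV-4-11 at -0.72. The direction for the gene therefore depends on the probe.

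**Figure D4:**
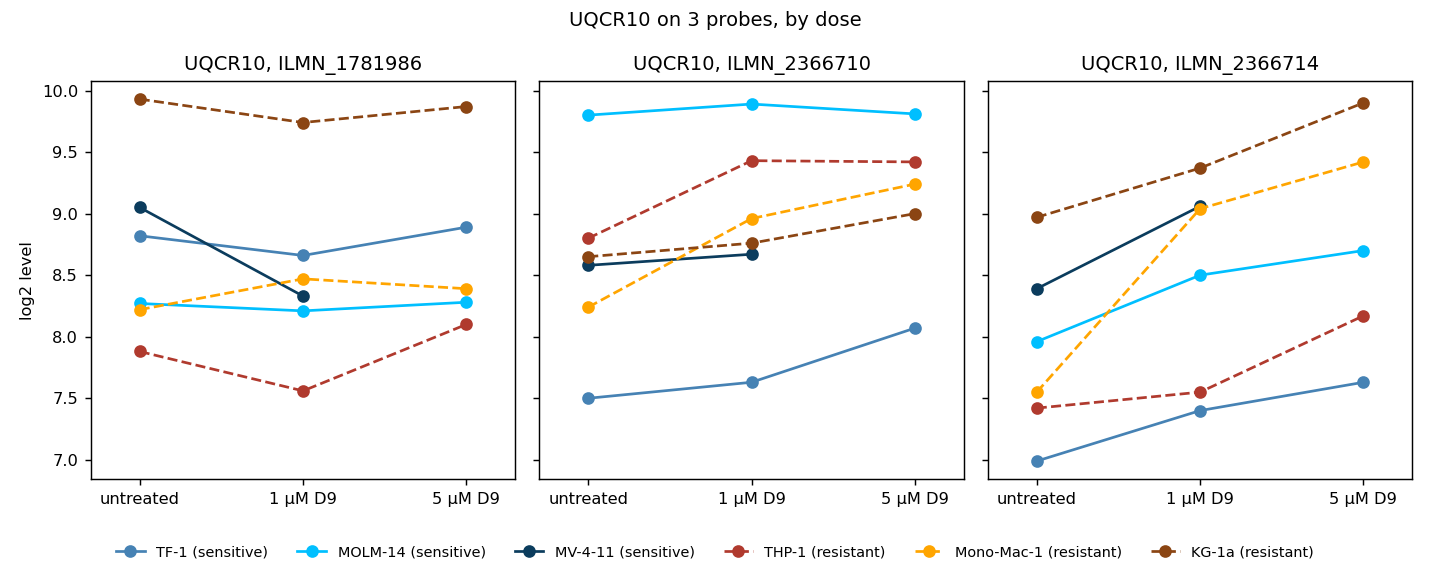
Log2 level (vertical axis) of the 3 UQCR10 probes in untreated cells and at 1 and 5 µM D9 (horizontal axis), with 1 array per point, lines joining the arrays of a cell line, solid for sensitive and dashed for resistant lines. On ILMN_2366714 every line is higher with D9, while on ILMN_1781986 the effect averages -0.12.

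The other complex III subunits selected by their prefix had small effects. The 2 core proteins gave 0.32 ± 0.13 for UQCRC2 (adjusted p = 0.251, limma) and -0.02 ± 0.06 for UQCRC1, and UQCRQ, a small subunit, gave 0.05 ± 0.08. UQCRH, the hinge protein, gave -0.12 ± 0.12 and -0.09 ± 0.07 on its 2 probes. UQCRHL, with -0.04 ± 0.07, is a near-identical copy of UQCRH, so its probe and those of UQCRH may share RNA. The median over the 13 probes was -0.02, and it turned to 0.03 with the 1 µM arrays alone, to 0.01 without Mono-Mac-1 and to 0.04 without KG-1a.

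Complex IV had no call among 12 probes, of which 1 had an unadjusted p under 0.05, and its median was -0.02, or -0.08 with median scaling and -0.07 with the authors' log2 values, with 6 probes below 0. COX6A1, the general form of subunit VIa, had the largest positive effect, at 0.22 ± 0.07 (adjusted p = 0.147, limma), above 0 in 6 of 6 lines. COX5A and COX5B, which lie on the matrix side, had -0.08 ± 0.06 and 0.11 ± 0.09.

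In complex V the median was -0.12 over 29 probes, with 23 below 0 (79.3%) and 3 called, all lower, for ATP5PF and ATP5PD. The median was -0.20 with median scaling and -0.18 with the authors' log2 values. Each of the 3 calls was lost whichever 1 line was left out, with adjusted p between 0.103 and 0.238 in limma, and with the 1 µM arrays alone (adjusted p = 0.166, 0.221 and 0.503, limma). Both genes encode parts of the peripheral stalk, which holds the catalytic head in place, and the other stalk genes were not called, with -0.16 ± 0.09 and -0.12 ± 0.07 for ATP5PB and 0.00 ± 0.06 for ATP5PO. ATP5PF, coupling factor 6, had a median of 12.15 over the D9 arrays and of 12.37 over the untreated arrays on ILMN_2348093. Its effects there ran between -0.47 in MV-4-11 and -0.17 in the Mono-Mac-1 line and were below 0 in 6 of 6 lines, a mean of -0.30 ± 0.06 (adjusted p = 0.0609, limma). The other ATP5PF probes gave -0.23 ± 0.06, called at an adjusted p of 0.0995 (limma), and -0.27 ± 0.08, not called (adjusted p = 0.128, limma). All 3 probes thus lay below 0.

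ATP5PD, subunit d of the same stalk, had medians of 12.65 over the D9 arrays and 12.84 over the untreated arrays on ILMN_1794912, an effect of -0.25 ± 0.06 (adjusted p = 0.0823, limma), and -0.17 ± 0.06 on its second probe (adjusted p = 0.180, limma). The subunits of the catalytic head were not called. ATP5F1A gave -0.16 ± 0.06 and -0.09 ± 0.06, ATP5F1B gave -0.13 ± 0.10 and ATP5F1C -0.14 ± 0.10. ATP5F1D, the delta subunit, gave -0.49 ± 0.13 on 1 probe (adjusted p = 0.106, limma) and 0.16 ± 0.08 on the other. The rotor ring is built from 1 protein made by 3 genes. Of these, ATP5MC1 had an effect of -0.24 on each of its 2 probes, with SEs of 0.12 and 0.07, ATP5MC2 lay between -0.20 and -0.16 on 2 tested probes, and none was called.

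Of the 18 genes with several tested probes, 6 had probes with effects of opposite sign, namely ATP5F1D, ATP5ME, ATP5MG, NDUFB4, UQCR10 and UQCRB.

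Promoters were compared because nuclear subunit genes share binding sites for a few factors, and called genes can be read side by side. RefSeq promoters (GRCh38.p14, from 250 bases before to 50 after a start) were matched by gene number for 65 of the 78 genes, as 78 promoters. Both strands were searched for the 8-letter cores GCGCATGC of NRF1, CCGGAAGT of the ETS factor GABPA and AAGATGGC of YY1, none of which overlapped another in the promoters printed here. The promoter of ATP5PF with the later start is shown for its YY1 and GABPA cores, that of NDUFA6 for its NRF1 core, read on the other strand, and its YY1 core, and those of NDUFB6, called lower, and UQCR10, called higher on 2 of its 3 probes, as examples with none of these letters. Capitals mark the cores.
ATP5PF (chr21:25734855-25735154, minus strand): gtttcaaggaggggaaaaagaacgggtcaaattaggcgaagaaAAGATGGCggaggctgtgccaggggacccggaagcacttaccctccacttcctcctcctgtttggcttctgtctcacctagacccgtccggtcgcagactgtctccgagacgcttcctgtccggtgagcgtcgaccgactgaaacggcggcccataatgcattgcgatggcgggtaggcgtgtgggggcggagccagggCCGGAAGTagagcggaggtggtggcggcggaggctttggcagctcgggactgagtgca
NDUFA6 (chr22:42090723-42091022, minus strand): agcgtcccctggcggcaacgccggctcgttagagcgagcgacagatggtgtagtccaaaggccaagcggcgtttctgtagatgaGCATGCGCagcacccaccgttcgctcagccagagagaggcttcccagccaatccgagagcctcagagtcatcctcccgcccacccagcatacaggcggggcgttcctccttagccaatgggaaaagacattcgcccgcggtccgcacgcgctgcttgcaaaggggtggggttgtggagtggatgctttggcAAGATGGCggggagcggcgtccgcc
NDUFB6 (chr9:32573110-32573409, minus strand): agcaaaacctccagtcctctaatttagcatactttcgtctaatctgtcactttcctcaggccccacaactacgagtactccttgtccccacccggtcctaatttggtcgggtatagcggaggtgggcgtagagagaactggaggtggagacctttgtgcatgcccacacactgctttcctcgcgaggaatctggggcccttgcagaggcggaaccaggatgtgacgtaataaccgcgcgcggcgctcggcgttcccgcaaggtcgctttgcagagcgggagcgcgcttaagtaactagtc
UQCR10 (chr22:29767119-29767418, plus strand): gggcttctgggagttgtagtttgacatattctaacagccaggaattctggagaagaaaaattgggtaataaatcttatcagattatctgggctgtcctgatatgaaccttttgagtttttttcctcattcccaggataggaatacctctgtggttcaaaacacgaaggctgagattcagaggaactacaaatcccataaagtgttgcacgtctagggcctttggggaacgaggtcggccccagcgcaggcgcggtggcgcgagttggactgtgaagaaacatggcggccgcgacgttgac

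The NRF1 core was in 16.7% of the subunit promoters and 3.05% of all 35116 promoters, the GABPA core in 14.1% and 4.14%, and the YY1 core in 15.4% and 2.89%. At least 1 of them was in 29 of the 65 genes (44.6%), against 11.2% of all genes. By complex, any core was in 9 of 13 genes (69.2%) in V and 4 of 6 (66.7%) in III. It was in 13 of 32 (40.6%) in I and 3 of 14 (21.4%) in IV. With so few genes, the order of the complexes was not tested. ATP5PF alone held all 3 cores, since its promoter with the earlier start has an NRF1 core at -120. The median D9 effect was -0.08 over the 28 tested genes with a core and -0.04 over the 33 without, on the brightest probe of each gene, and 19 and 18 of them lay below 0. The cores were chosen as those of factors known to act on respiratory chain promoters. The background of 27305 genes was not matched to the subunits for expression. A match of letters is a description of the sequence and was not tested as a binding site.

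Few subunits were called at a single dose. At 1 µM, in 6 lines, 3 of 94 probes were called, against 1.77% of all, namely both NDUFB6 probes lower and NDUFA2 higher. At 5 µM, in 5 lines, 8 were called, against 5.00%, with UQCR10, NDUFA2 and COX6A1 higher and NDUFB6, NDUFA10, ATP5PF and both ATP5PD probes lower. COX6A1 had an effect of 0.31 at 5 µM (adjusted p = 0.0867, limma) and of 0.21 at 1 µM. Within the 5 lines with both doses, the step between 5 and 1 µM was called for 1 probe, against 0.532% of all. This was UQCR10 on ILMN_2366714, higher by 0.39 ± 0.08 at 5 µM (adjusted p = 0.0733, limma). That call was lost without TF-1, MOLM-14, Mono-Mac-1 or KG-1a, and without THP-1 2 probes were called. The probes of ATP5PD, at -0.36 ± 0.08 and -0.30 ± 0.10, and ATP5MC1, at -0.24 ± 0.07, had the next steps but were not called (adjusted p = 0.126, 0.245 and 0.200, limma). Smaller steps were those of ATP5F1D at -0.22 ± 0.07 and NDUFV1 at -0.21 ± 0.07, and, above 0, of the other UQCR10 probes at 0.17 ± 0.08 and 0.18 ± 0.08, COX7A2 at 0.16 ± 0.08 and ATP5MC3 at 0.12 ± 0.06, with none called.

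**Figure D5:**
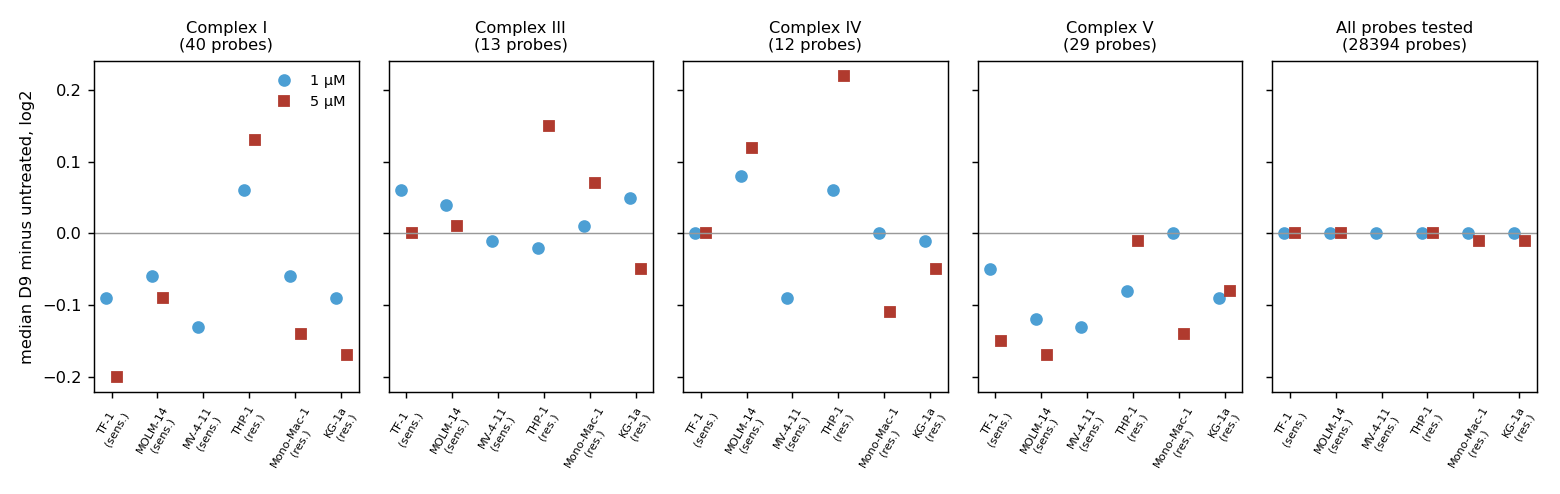
Median D9 effect, as log2 D9 minus untreated (vertical axis), over the tested probes of each complex and over all tested probes, in each cell line (horizontal axis), with circles at 1 µM and squares at 5 µM. Complex I lies at 0.06 and 0.13 in THP-1 and below 0 in every other line, and all probes lie between -0.01 and 0.00.

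Line by line, the median effect over all subunits was below 0 in 5 lines, between -0.11 in MV-4-11 and -0.03 in TF-1, but 0.05 in THP-1. The MV-4-11 value rests on its 1 µM array alone, and those of the other lines on both doses. At 1 µM the median was -0.06 in MOLM-14, -0.05 in KG-1a, -0.03 in TF-1 and THP-1, and 0.00 in Mono-Mac-1. At 5 µM it was 0.08 in THP-1 and -0.11 in Mono-Mac-1. For complex I the median over each line's D9 arrays lay between -0.13 and -0.09 in 5 lines and at 0.09 in THP-1. For complex V it was below 0 in all 6 lines, from -0.15 in MOLM-14 to -0.08 in THP-1. At 5 µM complex V reached -0.17 in MOLM-14 and -0.15 in TF-1, where 27 of 29 probes lay below 0, and -0.01 in THP-1. The arrays of TF-1 and THP-1 had lowest raw signals of 30.2 to 35.4, while those of the other 4 lines, apart from 1 MV-4-11 array, held a raw 0. Both sets hold lines of both classes, and the part of this difference in the results was not tested.

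The 2 classes were arrayed to find genes that respond to D9 in sensitive but not in resistant lines. The study reported such genes by significance analysis of microarrays, whereas limma called no class difference on any tested probe here. The lack of calls among the respiratory subunits is therefore not particular to them. None of 94 probes was called in limma, against 0% of all, with 2 of 94 and 752 of 28394 at an unadjusted p under 0.05, and Student's t-test on the same line effects gave 0 calls as well. The median of the difference, sensitive minus resistant, was -0.04. The probes with the smallest p were NDUFB9, with effects of -0.10 in sensitive and 0.24 in resistant lines (difference -0.33 ± 0.12), and ATP5ME, with -0.22 and 0.18 (difference -0.41 ± 0.16), both with an adjusted p of 0.999 in limma. NDUFB7 differed by -0.36 ± 0.16, UQCR10 (ILMN_2366710) by -0.41 ± 0.18 and ATP5MC1 (ILMN_1676393) by -0.54 ± 0.25. The ATP5MC1 probe had effects of -0.76 in MOLM-14 and 0.59 in THP-1 at its extremes. The positive differences of smallest p were 0.25 ± 0.15 and 0.27 ± 0.23 for the UQCRH probes, 0.20 ± 0.12 for COX7C, 0.24 ± 0.18 for ATP5MG and 0.18 ± 0.15 for NDUFA2. With SEs of 0.12 to 0.25 for these differences, a moderate class difference in a single subunit could not have been detected.

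Other genes of the pathway were taken from lists. The first list holds complex II, cytochrome c and CYC1, a complex III subunit without the prefix, and 5 of its 6 genes were measured on 7 tested probes. SDHC, a membrane anchor of succinate dehydrogenase, was called lower on 1 probe at -0.25 ± 0.06 (adjusted p = 0.0705, limma) and had 0.10 ± 0.11 on the other. CYC1 had -0.17 ± 0.08 and was not called (adjusted p = 0.328, limma). CYCS, which encodes cytochrome c, had an effect of 0.45 ± 0.13 that was not called (adjusted p = 0.129, limma), with 1.18 in Mono-Mac-1. NDUFA4 and NDUFA4L2 are listed under the symbols COXFA4 and COXFA4L2 and so fell outside the rule, and their effects were 0.06 ± 0.07 and -0.15 ± 0.07.

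Assembly factors, which build the complexes and insert their cofactors, gave 9 calls on 56 tested probes of 41 genes, 4 higher and 5 lower, with a median of -0.03, beside 5.60% called over all tested probes and 10.5% among bright ones. Nothing particular to the list is read from this. TACO1, which activates translation of a mitochondrial subunit of complex IV, was lower at -0.58 ± 0.08 (adjusted p = 0.0258, limma), with -0.27 in THP-1 as the weakest and -0.80 in MV-4-11 as the strongest line. The copper factors COX17 and SCO1 were lower at -0.39 ± 0.08 and -0.40 ± 0.09, and so were UQCC2, at -0.41 ± 0.09, and NDUFAF2, at -0.27 ± 0.05. NDUFAF1, which assembles the membrane arm of complex I, was higher at 0.39 ± 0.07 (adjusted p = 0.0472, limma), in 6 of 6 lines, and so were BCS1L, TTC19 and UQCC1, which act on complex III. UQCC1 was called on 1 of its 3 tested probes, at 0.22 ± 0.06, while the other two gave 0.11 ± 0.06 and 0.16 ± 0.10. ATP5IF1, the natural inhibitor of the ATP synthase, had -0.23 ± 0.08 and 0.00 ± 0.07 on its 2 probes.

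Of 14 genes for factors that act on respiratory gene transcription or mitochondrial RNA, all were measured, on 20 tested probes, with 0 called higher and 2 lower, beside 2.81% of all tested probes called lower. Both calls were for GABPB1, the partner of GABPA, at -0.55 ± 0.09 (adjusted p = 0.0371, limma) and -0.49 ± 0.06 (adjusted p = 0.0254, limma), each lower in 6 of 6 lines, while the remaining tested probe gave -0.19 ± 0.11. GABPA itself had 0.12 ± 0.09, and NRF1 had -0.02 ± 0.08 and -0.08 ± 0.06 on its tested probes. PPARGC1A, a coactivator of mitochondrial genes, had 0.03 ± 0.06, and TFAM, which packages mitochondrial DNA, had -0.17 ± 0.10.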

How the data were processed

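Total RNA of 6 AML cell lines was hybridised to Illumina HT-12 V4 bead arrays, 17 in all. The main input, as deposited, is a table of linear probe intensity that the authors exported from GenomeStudio without normalizing between arrays. It lacks control probes and detection p-values. The authors also deposited log2 values from GeneSpring, with settings that no source used here gives. By their values these are shifted per array and centred per probe, and they served as an alternative. Array number limits the precision.

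Raw intensities were corrected in limma 3.58.1 (R 4.3.3) by normexp (offset of 50), then quantile-normalized and log2-transformed. Those with a mean above the 40th percentile were tested, 28394 of 47323. Symbols come from the platform annotation, updated by gene number for 30074 of 30113 probes with 1 symbol. Each line gave 1 value, its D9 mean minus its untreated array, and lmFit and eBayes were run over all probes with 4 residual degrees of freedom and class as a term. The line pairs the arrays: with group means removed, its untreated array correlated with its 1 µM array at 0.853 to 0.942. A call meant an adjusted p (Benjamini-Hochberg, over all tested probes) under 0.10. The study used significance analysis of microarrays for the class comparison, and limma was used here in its place. Each line has 1 culture per condition, so p-values measure the spread between lines.

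The members and lists were chosen with earlier results of these data known. Named probes were up to 10 called each way with the same direction in every line, with the 5 of smallest p where fewer were called. Those with the smallest p (5 each way) were added for class, dose and untreated differences, as were the 2 with the widest untreated range in each complex and the isoform pairs. Other probes of named genes, the core subunits, UQCRC1, UQCRC2, UQCRHL, COX5A, COX5B and the catalytic head were chosen once their values had been seen. The alternatives tried were median scaling, the authors' log2 values, an offset of 16 or no background correction, no filter or one at the 60th percentile, an adjusted p of 0.05, each dose by itself, no pairing, every array with line as a block, no class term, the mean over a gene's probes, Student's t-test and leaving out each line. No chip or date is given, so no batch was tested.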

Additional observations from a re-analysis of the deposited data

Results flagged for a closer look

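Of 29 sets of 6 line values tested for a single line far from the rest, 3 had one. About 5% of sets do so by chance when they are chosen without regard to their spread. The UQCR10 and COX6B2 probes below were named for a large effect or a wide untreated range, so that rate does not apply to them. The median D9 effect on complex I was 0.09 in THP-1 and between -0.13 and -0.09 in the other lines. The D9 effect on UQCR10 (ILMN_2366714) was 1.69 in Mono-Mac-1 and 0.44 to 0.66 in the other lines. The untreated level of COX6B2 (ILMN_2176467), on a probe below the level limit for testing, was 7.31 in TF-1 and 5.70 to 5.90 in the other lines.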

How the results depend on the processing

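The 7 subunit probes called lower and 4 called higher, of 1591 calls over all tested probes, were 3 and 2 of 891 with median scaling, 2 and 1 of 503 with the 1 µM arrays alone, 0 and 0 of 2 without pairing by line, 19 and 9 of 4860 with every array as a value and the line as a block, and 1 and 0 of 496 at a threshold of 0.05. Leaving out each line in turn gave 0 to 4 lower and 0 to 3 higher, of 108 to 1376. With the authors' log2 values they were 8 and 3, and the other alternatives stayed within 1.5 times the main counts. The median effect over all subunits was -0.13 with median scaling and -0.08 with quantile normalization, and below 0 under every alternative run. The single dose-step call became 0 with an offset of 16, with median scaling and at a threshold of 0.05, and 0 to 2 when a line was left out. Calls for the class difference and for untreated cells stayed at 0 under every alternative run. No called probe changed sign under an alternative. The arrays are not repeated, and dim probes such as NDUFC2 lie near background, where changes are understated.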
